A study of Mus musculus with 24 samples.

Results

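The proteasome subunit genes were taken as all genes whose symbol reads Psm, a letter between a and g, and a number. This rule found 48 genes with 106 protein-coding transcripts, of 53392 genes in the files, 21803 of which have a protein-coding transcript. RNA sequencing libraries from mouse hindlimb muscle were made in 3 replicates for each of 8 groups, from mdx mice (C57BL/10ScSn-Dmd mdx/J, which lack full-length dystrophin) and from WT mice (C57BL/10ScSnJ). Mice of both genotypes carried the Pax7-nGFP reporter, which marks muscle stem cells (MuSCs) with green fluorescence. Freshly isolated MuSCs (FiMuSCs) came from uninjured muscle, and the authors describe those of mdx mice as not fully quiescent. Activated MuSCs (AMuSCs) came from muscle taken 3 days after an injection of 10 µM cardiotoxin, a venom toxin that destroys myofibres. Both were sorted as GFP+ ITGA7+ cells without CD31, CD45, SCA1 and CD11b. Primary myoblasts were purified with magnetic beads and grown in culture, and myotubes were the same kind of cells after 2 days of differentiation. Ages were matched but are not given for these libraries, and the labels do not say whether replicates came from separate animals, so p-values measure only the spread between these samples. The sorted and the cultured cells had their RNA extracted with different kits, so tests were made only within sorted or within cultured cells.

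The proteasome is the barrel-shaped protease that degrades proteins tagged with ubiquitin. Its core particle is built from rings of alpha subunits (Psma genes), which gate the entrance, and rings of beta subunits (Psmb genes), of which Psmb5, Psmb6 and Psmb7 encode the active sites. The regulatory cap unfolds and feeds in substrates with a ring of ATPases (Psmc genes) and recognises and strips ubiquitin with non-ATPase subunits (most Psmd genes). Interferon induces the alternative active-site subunits Psmb8, Psmb9 and Psmb10, which replace Psmb5, Psmb6 and Psmb7 to form the immunoproteasome, best known for making peptides for MHC class I. Other caps (Psme genes) activate the core without ubiquitin recognition, Psmf1 was described as an inhibitor, and chaperones (Psmg genes, Psmd5, Psmd9 and Psmd10) assemble the particle. In muscle, the proteasome breaks down myofibrillar proteins during atrophy and remodelling.

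Library totals lay between 37280196 and 64429222 estimated counts (median 47357463), of which 86361 to 398164 fell on the proteasome genes. The summed CPM (counts scaled to the size of each library) of 7 genes of muscle stem cells and myoblasts were 2060 or more in every library, and those of 9 genes of differentiated muscle were 43556 to 58198 in myotubes and at most 2652 in other cells. Dmd, whose mdx allele is a point mutation that leaves the transcript countable, had 147 to 155 CPM in mdx FiMuSCs against 247 to 280 CPM in WT FiMuSCs, and 42.0 to 49.6 CPM in mdx myotubes against 219 to 247 CPM in WT myotubes. A list of 12 leukocyte and macrophage genes was highest in mdx AMuSC replicate 1. It summed to 5373, 182 and 367 CPM in mdx AMuSCs, although CD45+ and CD11b+ cells were gated out, against 16.5, 16.1 and 44.6 CPM in WT AMuSCs. In mdx FiMuSCs it summed to 636, 1004 and 1888 CPM, against 134, 432 and 92.2 CPM in WT FiMuSCs. The same list set mdx myoblast replicate 2 apart in culture, at 238 CPM. For the counts of members between the AMuSC groups and the genes described from them, values without mdx AMuSC replicate 1 are given as well.

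The proteasome genes were a larger part of the transcriptome in injury-activated and cultured cells than in freshly isolated stem cells. Their summed TPM (a level scaled to transcript length and library size) were 1883 ± 38.1 in mdx FiMuSCs and 1899 ± 121 in WT FiMuSCs (SD, n = 3 each, as for the other groups). The sums were 2997 ± 386 TPM in mdx AMuSCs and 3459 ± 163 TPM in WT AMuSCs. Cultured cells lay close together, at 3711 ± 103 TPM in mdx myoblasts, 3759 ± 192 TPM in WT myoblasts, 3672 ± 185 TPM in mdx myotubes and 3651 ± 79.9 TPM in WT myotubes. Every AMuSC library was above every FiMuSC library, and the mdx AMuSC libraries, at 2619, 3391 and 2980 TPM, overlapped the WT AMuSC libraries, at 3355, 3375 and 3647 TPM. In bulk RNA, fewer cells of a type and less RNA per cell cannot be told apart.

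**Figure D1:**
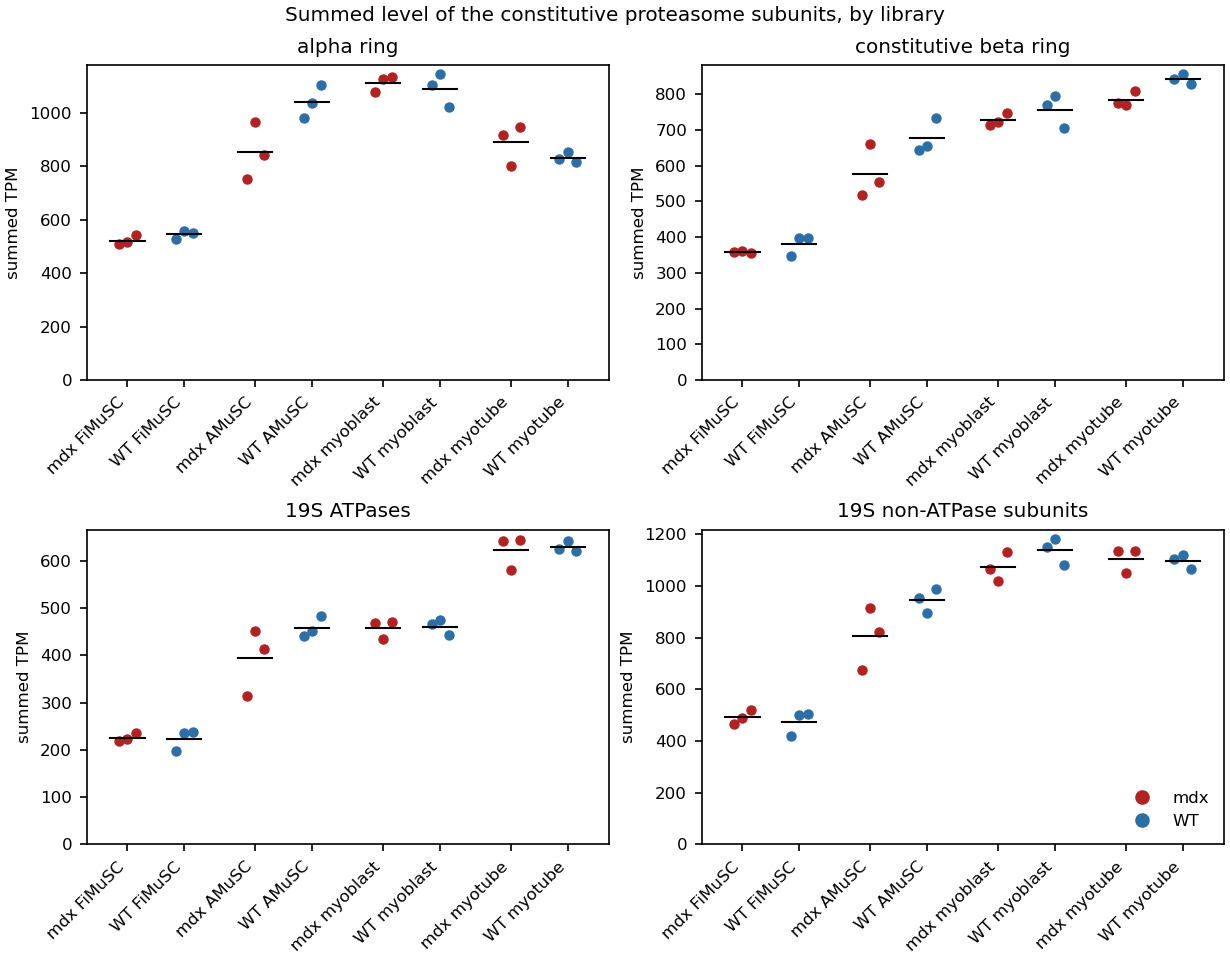
Summed TPM of the 7 alpha, 7 constitutive beta, 6 ATPase and 11 non-ATPase subunits (the alpha panel also holds the testis form Psma8), 1 point per library, mdx in red left of WT in blue, black line at the mean of 3 libraries. All 4 sets are lowest in FiMuSCs, and the ATPases are highest in myotubes (623 TPM in mdx and 630 TPM in WT).

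Within a ring the listed levels differed among subunits, although the particle holds them in equal number. In WT AMuSCs the alpha subunits spanned 62.8 TPM (Psma2) to 449 TPM (Psma3) around a median of 106 TPM. In the same cells the constitutive beta subunits spanned 20.7 TPM (Psmb4) to 147 TPM (Psmb7) around 89.1 TPM. The ATPases spanned 40.9 TPM (Psmc6) to 123 TPM (Psmc3) around 71.6 TPM, and the non-ATPase subunits spanned 48.4 TPM (Psmd14) to 139 TPM (Psmd13) around 76.7 TPM. On coding transcripts, Psma2 and Psmb4 were the lowest of their rings in all 8 groups. With all transcripts counted, Psma2 stayed lowest, but Psmb4 was the highest constitutive beta subunit in all 8 groups. In WT AMuSCs Psmb4 then had 420 TPM, against 152 TPM for Psmb6. Psmc6 (201 TPM) and Psmd14 (118 TPM) were then no longer the lowest of their sets in WT AMuSCs.

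These levels also depend on how reads were divided among transcripts. For 10 of the 48 genes, over 50% of the TPM lay on transcripts that are not classed as protein coding, which the membership rule leaves out. Psmb4 had 22.1 TPM on its coding transcript and 448 TPM on the others, averaged over the 24 libraries. Psmb10 had 3.65 TPM on its coding transcript and 27.2 TPM on the others. Psme2, which encodes a subunit of the interferon-induced PA28 cap, had 2.08 TPM on 3 coding transcripts and 274 TPM on 7 others, of which Psme2-203, annotated as a retained intron, took 178 TPM. Psma3 owed 364 of its 369 coding TPM to the 312-base transcript Psma3-208. A processed pseudogene that matches Psma3 at 100% over 685 bases, Gm13835 (chr6:31141979-31142663, minus strand, GRCm38), carried 189.48% as many reads as the coding transcripts of Psma3. The levels of these genes are therefore uncertain.

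Injury raised most proteasome genes in both genotypes. In mdx cells, 36 of 47 genes tested were higher in AMuSCs than in FiMuSCs and 0 were lower (edgeR quasi-likelihood test, Benjamini-Hochberg adjusted p under 0.05, and likewise 0 lower at an unadjusted p under 0.05 or with DESeq2). In WT cells, 39 of 47 were higher and 2 were lower. Over all genes, 17.8% were called higher and 9.90% lower in mdx cells, and 31.1% higher and 30.7% lower in WT cells. The median log2 fold change of the proteasome genes was 0.86 in mdx and 1.30 in WT, where the median over all genes tested was 0.05 in mdx and -0.05 in WT. All 36 genes that were higher in mdx were also higher in WT, and Psmd11, Psme3 and Psmg2 were called in WT alone. Leaving out mdx FiMuSC replicate 2 left 21 higher genes in mdx. Psma8, the testis form of an alpha subunit, had at most 0.274 CPM in any library and passed no filter, and it is the gene of the 48 that was not tested.

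The rise ran through the whole core particle and its cap. All 7 alpha subunits, all 7 constitutive beta subunits and all 6 ATPases were higher in both genotypes. Of the 11 non-ATPase subunits, 10 were higher in mdx and 11 in WT. Of the 7 chaperones, 4 were higher in mdx (Psmd5, Psmd10, Psmg1 and Psmg3) and 5 in WT, which adds Psmg2. Of the 5 activator and inhibitor genes, 1 was higher in mdx (Psme4) and 2 in WT (Psme3 and Psme4). Of the 4 inducible or thymic beta subunits, Psmb10 was higher in both genotypes, and Psmb8 and Psmb9 were lower in WT.

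**Figure D2:**
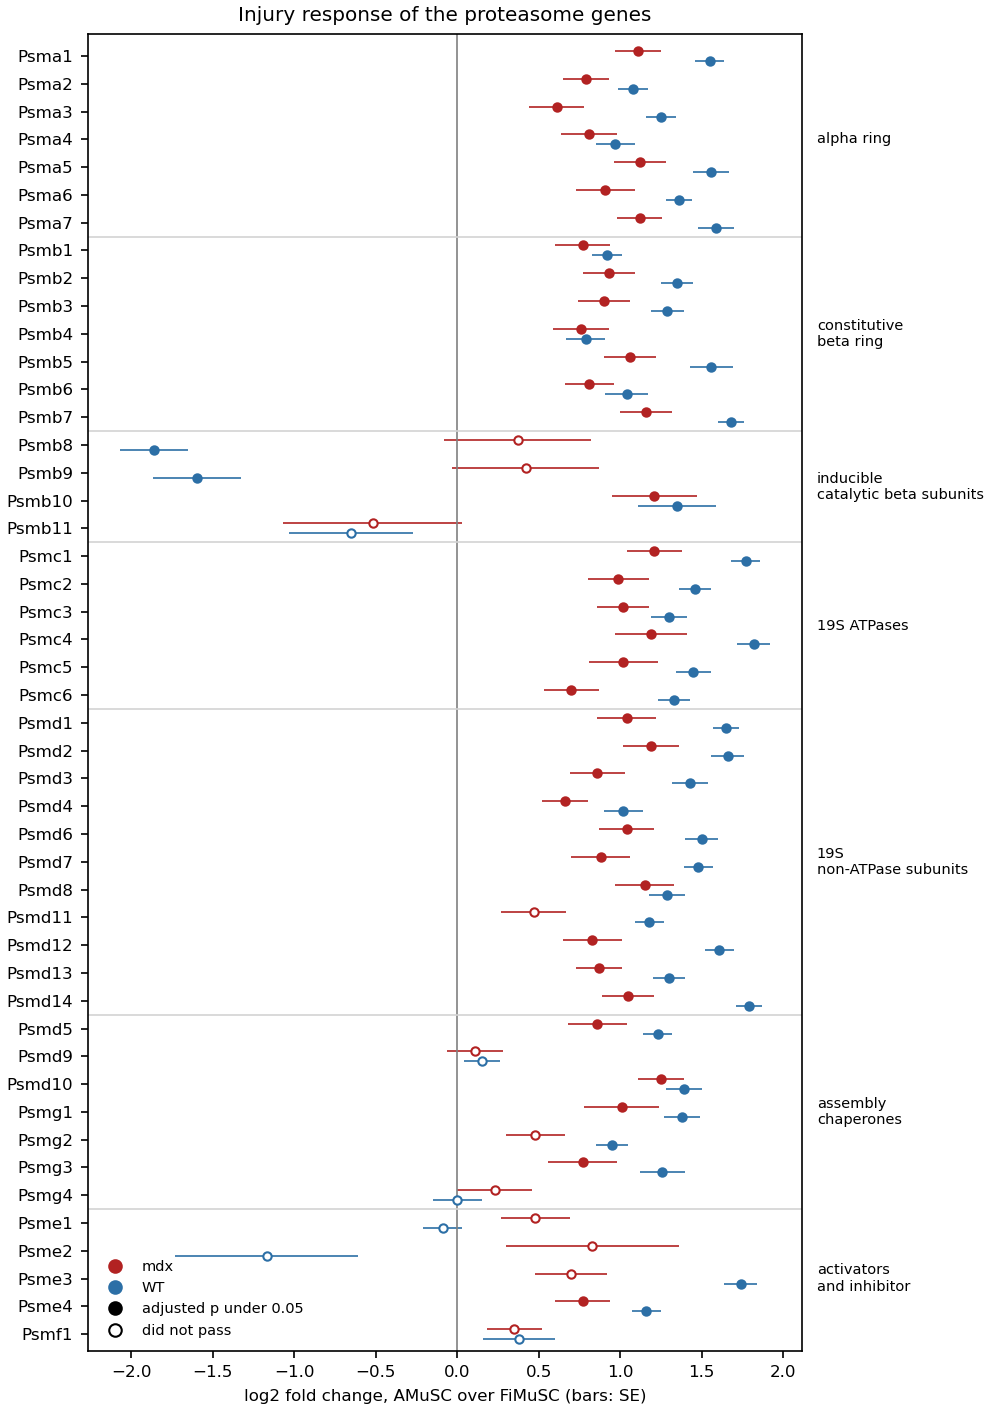
Log2 fold change of AMuSC over FiMuSC for each proteasome gene, mdx in red above WT in blue, bars giving the SE of the fit (6 libraries a genotype), filled points past the adjusted p of 0.05. The core and cap subunits lie right of 0 in both genotypes with most WT points further right, and Psmb8 and Psmb9 lie left of 0 in WT only.

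The ATPase genes Psmc1 and Psmc4 were among the largest changes in both genotypes. Psmc1 had 121, 189 and 146 CPM in mdx AMuSCs, against 63.8, 68.9 and 73.9 CPM in mdx FiMuSCs. In WT it had 197, 204 and 225 CPM in AMuSCs, against 58.6, 63.3 and 65.0 CPM in FiMuSCs. Neither genotype's groups overlapped, and the log2 fold change was 1.21 (SE 0.17, edgeR adjusted p = 0.00335) in mdx and 1.77 (SE 0.09, adjusted p = 3.48e-06) in WT. Psmc4 had 64, 121 and 92.4 CPM in mdx AMuSCs, against 42.6, 43.7 and 40.8 CPM in mdx FiMuSCs. In WT it had 142, 148 and 162 CPM in AMuSCs, against 38.7, 45.8 and 45.8 CPM in FiMuSCs. Again no groups overlapped, with log2 fold changes of 1.19 (SE 0.22) in mdx and 1.82 (SE 0.10) in WT.

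Psmd10, which encodes the chaperone gankyrin, had 25.9, 31.2 and 25.3 CPM in mdx AMuSCs, against 12, 12.1 and 12.1 CPM in mdx FiMuSCs. Its log2 fold change of 1.25 (SE 0.14) was the largest of the set in mdx, and that in WT was 1.39 (SE 0.11). Of the active-site genes, Psmb7, the trypsin-like subunit, had 145, 218 and 157 CPM in mdx AMuSCs against 77.8, 83.7 and 81.8 CPM in mdx FiMuSCs. In WT, Psmb7 had 250, 253 and 273 CPM in AMuSCs against 81.7, 82.8 and 83.0 CPM in FiMuSCs. The log2 fold changes were 1.16 (SE 0.16) in mdx and 1.68 (SE 0.08) in WT, and the groups did not overlap. Psmb6, the caspase-like subunit, changed less, with 101, 138 and 95.6 CPM in mdx AMuSCs against 69.3, 63.5 and 65.7 CPM in mdx FiMuSCs, and 130, 139 and 177 CPM in WT AMuSCs against 66.4, 78.2 and 76.1 CPM in WT FiMuSCs. Its log2 fold changes were 0.81 (SE 0.15) in mdx and 1.04 (SE 0.13) in WT.

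Among the activators, Psme4, which encodes the large single-chain activator PA200, had 188, 246 and 250 CPM in mdx AMuSCs against 120, 148 and 151 CPM in mdx FiMuSCs. In WT, Psme4 had 287, 282 and 248 CPM in AMuSCs against 125, 127 and 121 CPM in FiMuSCs. It rose in both, by a log2 fold change of 0.77 (SE 0.17) in mdx and 1.16 (SE 0.09) in WT. Psmf1 had 14.2, 16.8 and 12.4 CPM in mdx AMuSCs against 12.6, 11.7 and 11.4 CPM in mdx FiMuSCs, and 17.0, 15.5 and 21.2 CPM in WT AMuSCs against 10.1, 17.4 and 14.5 CPM in WT FiMuSCs. Its change passed the test in neither genotype (log2 fold change 0.35 with SE 0.17 in mdx, 0.38 with SE 0.22 in WT). Psmd9 and Psmg4, both chaperones, also passed in neither, with log2 fold changes between 0.00 and 0.23.

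A list of 8 genes of proliferating cells rose as well, 8 of 8 in each genotype. It summed to 1294, 1642 and 1671 CPM in mdx AMuSCs against 229, 252 and 274 CPM in mdx FiMuSCs, and to 2718, 2499 and 2718 CPM in WT AMuSCs against 264, 191 and 157 CPM in WT FiMuSCs. Its part in the rise of the proteasome genes was not tested.

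The fitted difference of injury responses (mdx minus WT) was negative for 41 of 47 genes, with a median of -0.49 on the log2 scale where all genes had -0.03. Single genes rarely passed the test of that difference. It called Psmb8 and Psmb9 higher and Psme3, Psmd12 and Psmd14 lower, 2 and 3 of 47, where 7.19% of all genes were called higher and 6.14% lower. At an unadjusted p under 0.05 there were 28 in both directions together. The share of all genes at that threshold is not given, so this count does not set the proteasome genes apart. The same direction was seen between the activated cells themselves. In mdx against WT AMuSCs, 41 of 47 genes had a lower fitted value, and the median log2 fold change was -0.40 where all genes had 0.04. In that comparison 3 proteasome genes were called higher (Psmb8, Psmb9 and Psme1) and 9 lower (Psmb5, Psme3, Psmd12, Psmd7, Psmd11, Psma7, Psma3, Psma1 and Psmd14), beside 14.0% higher and 8.36% lower of all genes. The calls of Psma3 (-0.50, edgeR adjusted p = 0.0632) and Psmb5 (-0.50, edgeR adjusted p = 0.0603) were lost when the reads of near-identical copies were added. The 2 comparisons share the AMuSC libraries.

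Psme3, which encodes the nuclear activator PA28 gamma, had the largest of the 3 called negative differences. It had 87.9, 139 and 123 CPM in mdx AMuSCs, against 213, 202 and 220 CPM in WT AMuSCs. In FiMuSCs it had 59.1, 80.5 and 85.7 CPM in mdx, against 56.2, 67.9 and 69.2 CPM in WT. The AMuSC groups did not overlap while the FiMuSC groups did. The log2 fold change in AMuSCs was -0.78 (SE 0.17, adjusted p = 0.0179), and the difference of injury responses was -1.10 (SE 0.26, adjusted p = 0.019). Its own rise after injury was 1.74 (SE 0.10) in WT and 0.70 (SE 0.22, adjusted p = 0.0504) in mdx.

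The lid subunits Psmd12, Psmd14 and Psmd7 followed. Psmd14, the deubiquitinase that removes the ubiquitin chain, had 61.7, 92.0 and 75.3 CPM in mdx AMuSCs against 113, 114 and 127 CPM in WT AMuSCs, and 37, 37.3 and 41.8 CPM in mdx FiMuSCs against 35.4, 33.5 and 35.0 CPM in WT FiMuSCs. The mdx library values were below the WT values in AMuSCs and above them in FiMuSCs. It rose after injury by 1.05 (SE 0.16) in mdx and 1.79 (SE 0.08) in WT, and the difference of injury responses was -0.81 (SE 0.20, adjusted p = 0.0214). Psmd12 had 86.6, 137 and 119 CPM in mdx AMuSCs against 188, 179 and 203 CPM in WT AMuSCs, with FiMuSC values of 62.1, 66.2 and 73.6 CPM in mdx against 59.6, 68.5 and 62.3 CPM in WT. Its difference of injury responses was -0.84 (SE 0.22, adjusted p = 0.0287). Psmd7, the partner of Psmd14 in the lid, had 104, 170 and 132 CPM in mdx AMuSCs against 213, 216 and 243 CPM in WT AMuSCs, a log2 fold change of -0.65 (SE 0.17, adjusted p = 0.0335) that lost its call without mdx AMuSC replicate 1 (-0.53, adjusted p = 0.0518). In each of these genes mdx AMuSC replicate 1 was the lowest library and replicate 2 the nearest to WT.

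The number of genes called in AMuSCs depended on single libraries. Without mdx AMuSC replicate 2, 33 genes were lower between the AMuSC groups and 32 in the difference of injury responses. No share over all genes is given beside these counts, so they do not set the proteasome genes apart. Without the leukocyte-rich mdx AMuSC replicate 1 the lower calls were 3 and 3, where 6.27% of all genes were lower between the AMuSC groups. Between those groups Psme3 was then at -0.65 (edgeR adjusted p = 0.015), Psmd12 at -0.53 (adjusted p = 0.0319) and Psmd14 at -0.46 (adjusted p = 0.0608). The other counts here with 1 library left out are also given without a share over all genes. Leaving out WT AMuSC replicate 1, 2 or 3 or mdx AMuSC replicate 3 left 1, 0, 0 and 2 lower calls between the AMuSC groups. In the difference of responses the lower calls were 0, 2 and 0 without WT AMuSC replicate 1, 2 and 3, 2, 1 and 1 without WT FiMuSC replicate 1, 2 and 3, and 4, 0 and 0 without mdx FiMuSC replicate 1, 2 and 3. The 8 proliferation genes were all lower in mdx than in WT AMuSCs, 5 of them without mdx AMuSC replicate 1, and their part in these differences was not tested.

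The windows 250 bases upstream of the RefSeq start (GRCm38.p6) were examined for Psmd14 and Psme3, which differed in injury response and whose RefSeq and GENCODE starts coincide. The ATTGG letters in capitals are a CCAAT box on the opposite strand, the element bound by the NF-Y complex.
Psmd14, chr2:61711444-61711693, plus strand: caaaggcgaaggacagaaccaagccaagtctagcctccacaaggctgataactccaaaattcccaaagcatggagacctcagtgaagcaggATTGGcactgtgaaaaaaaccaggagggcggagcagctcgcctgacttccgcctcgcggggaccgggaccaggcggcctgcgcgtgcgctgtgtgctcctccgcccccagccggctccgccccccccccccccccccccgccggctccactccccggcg
Psme3, chr11:101315963-101316212, plus strand: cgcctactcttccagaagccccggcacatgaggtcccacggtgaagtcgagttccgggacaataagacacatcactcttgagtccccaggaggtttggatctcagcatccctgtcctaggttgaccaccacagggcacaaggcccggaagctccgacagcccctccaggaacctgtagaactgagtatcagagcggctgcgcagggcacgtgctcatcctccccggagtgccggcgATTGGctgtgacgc
The letters CCAAT, searched on both strands, were in 14 of 40 proteasome genes with a window (35.0%) and in 37.5% of the windows of 27025 genes. The core of the antioxidant response element, TGACNNNGC, which the proteasome regulator Nfe2l1 binds, was in 5 of 40 (12.5%; Psmb5, Psmb6, Psmc6, Psmd9 and Psmd12) and in 11.5% of all genes. The core of the interferon-stimulated response element was in 3 of 40 (7.5%) and 3.5% of all genes, and a gamma-activated site, TTCNNNGAA, in 2 of 40 (5.0%; Psmb8 and Psmg1) and 8.1% of all genes. These shares describe letters in the windows.

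The inducible active-site genes went the other way in AMuSCs. Psmb8, which replaces the chymotrypsin-like subunit Psmb5, had 44.2, 22.2 and 11.4 CPM in mdx AMuSCs, against 3.61, 3.88 and 3.23 CPM in WT AMuSCs. Every mdx library was above every WT library, and the log2 fold change was 2.94 (SE 0.48, adjusted p = 0.00911). Psmb9, which replaces the caspase-like subunit Psmb6, had 16.8, 8.90 and 4.45 CPM in mdx AMuSCs, against 1.76, 1.47 and 1.69 CPM in WT AMuSCs. The groups again did not overlap, with a log2 fold change of 2.69 (SE 0.48, adjusted p = 0.0103). Without mdx AMuSC replicate 1, the highest library for both genes, the log2 fold changes were 2.27 (adjusted p = 0.00689) for Psmb8 and 2.06 (adjusted p = 0.0146) for Psmb9. Both calls were lost without WT AMuSC replicate 1 or 3, and at most 1 was kept without WT AMuSC replicate 2.

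Injury lowered both genes in WT, and their change in mdx did not pass the test. In FiMuSCs, Psmb8 had 24.2, 19 and 20 CPM in mdx against 15, 14.4 and 10.2 CPM in WT, so that its change after injury was -1.86 (SE 0.21, adjusted p = 0.000167) in WT and 0.37 (SE 0.45, adjusted p = 0.597) in mdx. Psmb9 had 9.13, 8.06 and 6.37 CPM in mdx FiMuSCs against 6.53, 4.09 and 4.57 CPM in WT FiMuSCs, with a change of -1.60 (SE 0.27, adjusted p = 0.00125) in WT and 0.42 (SE 0.45, adjusted p = 0.544) in mdx. The difference of injury responses was 2.15 (SE 0.52, adjusted p = 0.0221) for Psmb8 and 1.95 (SE 0.56, adjusted p = 0.0396) for Psmb9. Without mdx AMuSC replicate 1 it was 1.54 (adjusted p = 0.0262) for Psmb8 and 1.37 (adjusted p = 0.0861) for Psmb9, so the call for Psmb9 was lost. Over the other libraries left out in turn, 0 to 3 genes were called higher in that difference, and Psmb8 lost its call without WT AMuSC replicate 1 or 3, WT FiMuSC replicate 2, or mdx FiMuSC replicate 2 or 3, at values of 2.07 to 2.51 wherever a library other than mdx AMuSC replicate 1 was left out. Between the AMuSC groups, 0, 1 and 0 genes were called higher without WT AMuSC replicate 1, 2 and 3.

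As a share of the summed TPM of the inducible and the constitutive gene, Psmb8 made up 33.3 ± 3.04% in mdx FiMuSCs and 20.5 ± 5.16% in WT FiMuSCs (SD, n = 3 each). In AMuSCs it was 37.7, 17.6 and 13.9% in mdx libraries, against 2.46, 2.22 and 1.70% in WT libraries. In culture the share was 1.68 ± 0.689% in mdx myoblasts, 0.48 ± 0.354% in WT myoblasts, and 0.282% or less in every myotube library. These shares leave out the reads on Gm3375, a near-identical copy of Psmb5 listed almost only in mdx. With its TPM added to Psmb5, an alternative chosen after seeing the data, the Psmb8 share was 31.9, 25.8 and 27.1% in mdx FiMuSCs against 25.6, 19.5 and 15.8% in WT FiMuSCs, and 32.2, 14.2 and 10.6% in mdx AMuSCs against 2.46, 2.17 and 1.67% in WT AMuSCs. In myoblasts it was then 1.01 ± 0.417% in mdx and 0.48 ± 0.354% in WT. The Psmb9 share was 16.6 ± 2.79% of Psmb9 and Psmb6 in mdx FiMuSCs, 9.18 ± 2.40% in WT FiMuSCs, 11.6 ± 6.95% in mdx AMuSCs, 1.14 ± 0.452% in WT AMuSCs, and 0.287% or less in every cultured library. With 1 library left out, the mean of mdx AMuSCs was as low as 15.8% for Psmb8 and 7.75% for Psmb9, below the WT FiMuSC means. These shares carry no test.

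**Figure D3:**
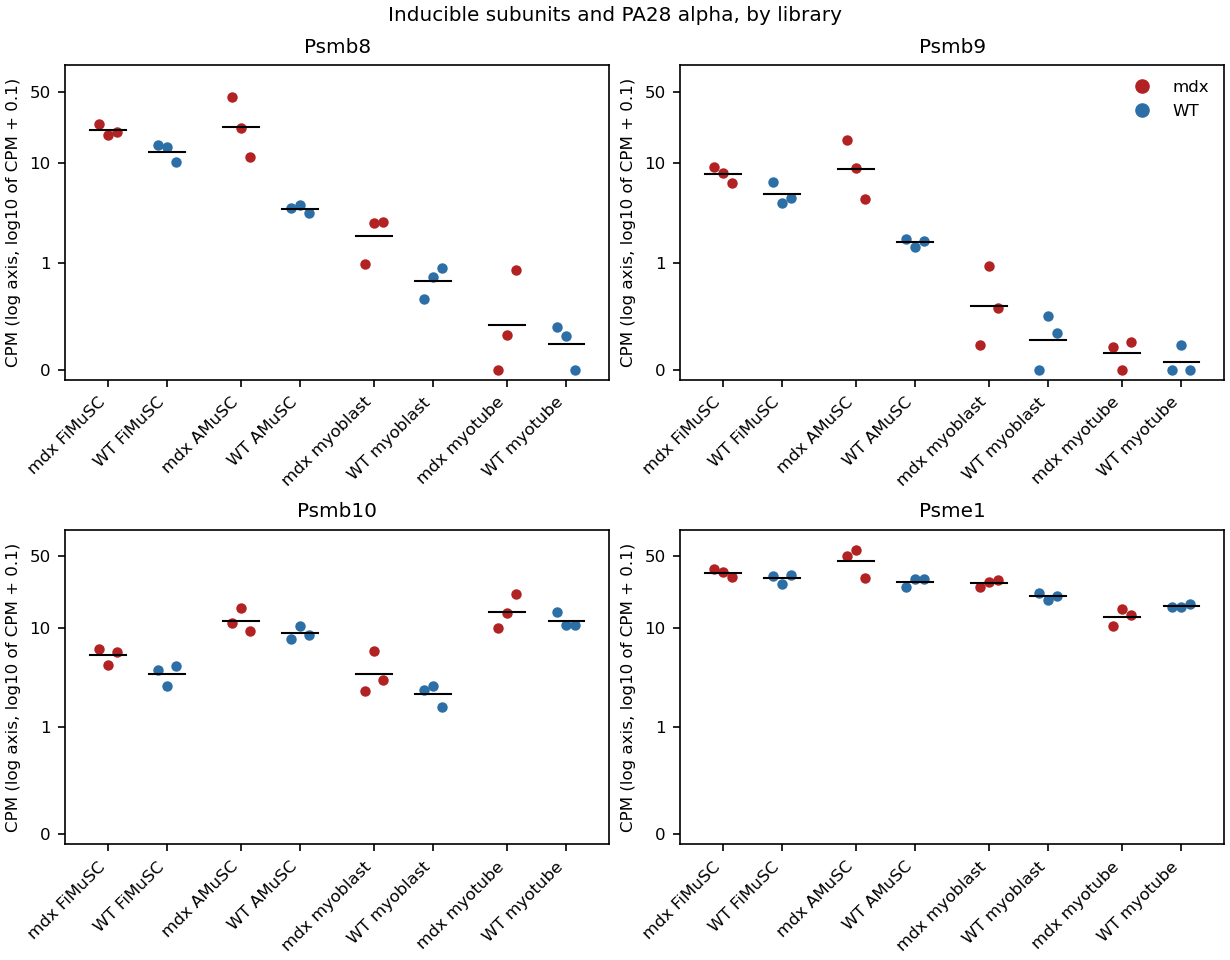
CPM of Psmb8, Psmb9, Psmb10 and Psme1 by library on a logarithmic axis (0.1 CPM added), mdx in red left of WT in blue, black line at the mean of the log values of 3 libraries. The mdx AMuSC libraries of Psmb8 (11.4 to 44.2 CPM) and Psmb9 (4.45 to 16.8 CPM) lie above those of WT (3.23 to 3.88 and 1.47 to 1.76 CPM), and both genes are near 0 in myotubes.

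Interferon and MHC class I genes, which share inducers with Psmb8 and Psmb9, moved in the same cells. Of 15 such genes, 12 were higher in mdx than in WT AMuSCs and 0 lower, among them Tap1, the peptide transporter gene next to Psmb9 (log2 fold change 1.94, SE 0.33), where 14.0% of all genes were higher. Leaving out mdx AMuSC replicate 1, 15 of 15 were higher, Tap1 by 1.47 (SE 0.23), beside 9.78% of all genes. The list summed to 2142, 950 and 634 CPM in mdx AMuSCs against 367, 380 and 394 CPM in WT AMuSCs, and after injury 11 of 15 fell in WT, where 30.7% of all genes fell, while 0 passed the test in mdx, where 9.90% of all genes fell. Of the 12 leukocyte genes, 10 were higher in mdx than in WT AMuSCs, and after injury 8 fell in WT and 0 passed the test in mdx. When mdx AMuSC replicate 1 was left out, 11 leukocyte genes were higher in mdx than in WT AMuSCs, beside 9.78% of all genes. After injury in mdx, 4 interferon and 3 leukocyte genes then fell, where 11.7% of all genes fell. Psmb8 and Psmb9 are also expressed in leukocytes and endothelial cells, and 7 endothelial genes all fell after injury in both genotypes, to sums of 5.12, 19.6 and 36.9 CPM in mdx AMuSCs and 3.07, 2.64 and 7.05 CPM in WT AMuSCs. Without mdx AMuSC replicate 1, 5 of these 7 were higher in mdx than in WT AMuSCs. Genes of mesenchymal progenitors summed to 3038, 3060 and 2095 CPM in mdx AMuSCs against 795, 732 and 690 CPM in WT AMuSCs, and 6 of 8 were higher. Genes of pericytes and smooth muscle summed to 356, 585 and 333 CPM in mdx AMuSCs against 144, 168 and 126 CPM in WT AMuSCs, and 4 of 5 were higher. The order of the mdx AMuSC libraries was 44.2, 22.2 and 11.4 CPM for Psmb8 where the leukocyte list was 5373, 182 and 367 CPM, and the part of leukocytes and of the other cell types in the result was not tested. Exons of Psmb9 (chr17:34181987-34187764, minus strand) overlap exons of Tap1 on the other strand, and whether the counting used strand is not stated, so reads of Psmb9 and Tap1 may be mixed.

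Psmb10, which replaces Psmb7, behaved unlike the other 2 inducible genes. It had 11.0, 15.6 and 9.30 CPM in mdx AMuSCs against 6.22, 4.26 and 5.70 CPM in mdx FiMuSCs, and 7.75, 10.3 and 8.37 CPM in WT AMuSCs against 3.82, 2.64 and 4.15 CPM in WT FiMuSCs. It rose after injury in both genotypes, by 1.21 (SE 0.26, adjusted p = 0.0153) in mdx and 1.35 (SE 0.24, adjusted p = 0.00169) in WT. Between mdx and WT AMuSCs its log2 fold change of 0.52 (SE 0.23, adjusted p = 0.155) did not pass. Its share of Psmb10 and Psmb7 was 5.33 ± 0.65% in mdx AMuSCs and 2.66 ± 0.445% in WT AMuSCs on coding transcripts, and 33.4 ± 5.28% in mdx AMuSCs and 23.4 ± 3.58% in WT AMuSCs with all transcripts counted. Psmb11, the thymus form, had at most 1.52 CPM in any library and passed the test in no comparison.

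The PA28 cap genes Psme1 and Psme2, which interferon also induces, are neighbours on chromosome 14. Psme1 (chr14:55578123-55581529, plus strand) had 50, 56.9 and 30.7 CPM in mdx AMuSCs, against 25.1, 29.5 and 29.8 CPM in WT AMuSCs. The groups did not overlap, although mdx replicate 3 was close to WT, and the log2 fold change was 0.78 (SE 0.21, adjusted p = 0.0356). Without mdx AMuSC replicate 1 it was 0.68 (adjusted p = 0.12), and without replicate 2 it was 0.58 (adjusted p = 0.103). FiMuSC values were 37.3, 34.6 and 31.4 CPM in mdx against 32.1, 26.6 and 32.7 CPM in WT. The change of Psme1 after injury passed the test in neither genotype (0.48 with SE 0.21 in mdx, -0.09 with SE 0.12 in WT).

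Psme2 on its coding transcripts had 1.22, 2.86 and 3.34 CPM in mdx AMuSCs, 1.28, 0.497 and 2.56 CPM in WT AMuSCs, 1.06, 2.21 and 1.11 CPM in mdx FiMuSCs and 4.70, 2.74 and 2.52 CPM in WT FiMuSCs, and passed the test in no comparison. With all transcripts it had 466, 524 and 389 TPM in mdx AMuSCs, against 275, 314 and 231 TPM in WT AMuSCs. These groups did not overlap, and the log2 fold change was 0.60 (SE 0.18, adjusted p = 0.0438). The change after injury in WT turned from -1.17 (SE 0.56, adjusted p = 0.107) on coding transcripts to 0.22 (SE 0.08, adjusted p = 0.0371) with all transcripts. In FiMuSCs Psme2 had 375, 339 and 387 TPM in mdx against 349, 347 and 355 TPM in WT with all transcripts, which overlap.

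Psmb5, the chymotrypsin-like active site that proteasome inhibitors such as bortezomib target (chr14:54614119-54618022, minus strand), was the proteasome gene with the lowest mdx value relative to WT in cultured cells. It had 53.3, 78.1 and 57.8 CPM in mdx AMuSCs against 105, 112 and 136 CPM in WT AMuSCs, a log2 fold change of -0.82 (SE 0.16, adjusted p = 0.0134), which was -0.75 (adjusted p = 0.0324) without mdx AMuSC replicate 1. In myotubes it had 115, 133 and 136 CPM in mdx against 242, 227 and 244 CPM in WT, a log2 fold change of -0.90 (SE 0.08, adjusted p = 0.00809). The groups did not overlap in either state, and the myotube call was lost without WT myotube replicate 1, 2 or 3. In myoblasts it had 78.3, 84.4 and 88.1 CPM in mdx against 125, 136 and 116 CPM in WT (log2 fold change -0.58, SE 0.08, adjusted p = 0.0683), and in FiMuSCs 31.0, 33.5 and 30.3 CPM in mdx against 34.6, 44.7 and 42.4 CPM in WT (-0.34, SE 0.12, adjusted p = 0.132). All mdx libraries were below all WT libraries in these groups too.

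The lower count of Psmb5 stood beside reads on a near-identical copy that were listed almost only in mdx. Gm3375 (chr7:3181093-3181888, plus strand) is a processed pseudogene whose transcript matches Psmb5-201 at 787 of 796 aligned positions (98.9%), with 8 mismatches and 1 gap base. It had 6.19 to 91.5 CPM in the 12 mdx libraries, against 0 to 2.11 CPM in the 12 WT libraries. In myotubes it had 67.8, 81.3 and 91.5 CPM in mdx against 0.229, 0.151 and 0.461 CPM in WT. No mdx library overlapped a WT library. The stretch with the most differences is shown from both transcripts, with the differing bases in capitals.
Psmb5-201, transcript bases 317 to 496: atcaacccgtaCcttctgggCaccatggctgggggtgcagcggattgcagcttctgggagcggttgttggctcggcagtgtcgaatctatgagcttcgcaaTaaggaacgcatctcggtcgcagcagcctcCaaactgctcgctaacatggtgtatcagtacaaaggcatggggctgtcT
Gm3375-201, transcript bases 287 to 466: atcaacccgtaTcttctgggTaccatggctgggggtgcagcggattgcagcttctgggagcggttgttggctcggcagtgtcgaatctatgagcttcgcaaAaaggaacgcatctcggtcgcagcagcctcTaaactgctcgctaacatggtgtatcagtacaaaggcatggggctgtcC
Counted from 1 at the first base shown, and with the base of Psmb5 first, the 5 differences over these 180 bases are C12T, C21T, T102A, C132T and T180C.

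When the reads of Gm3375 were added to Psmb5, the log2 fold change of mdx against WT became -0.50 (SE 0.16, adjusted p = 0.0603) in AMuSCs and -0.20 (SE 0.09, adjusted p = 0.398) in myotubes, and neither call was kept. It became -0.05 (SE 0.11) in FiMuSCs and 0.08 (SE 0.08) in myoblasts. The sum was 65.8, 97.5 and 75.2 CPM in mdx AMuSCs against 105, 114 and 137 CPM in WT AMuSCs, which still did not overlap, and 183, 215 and 228 CPM in mdx myotubes against 242, 227 and 244 CPM in WT myotubes, which did. The rise after injury was kept, at 1.10 (SE 0.16) in mdx and 1.57 (SE 0.13) in WT. Why the copy carried reads in mdx libraries was not tested.

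**Figure D4:**
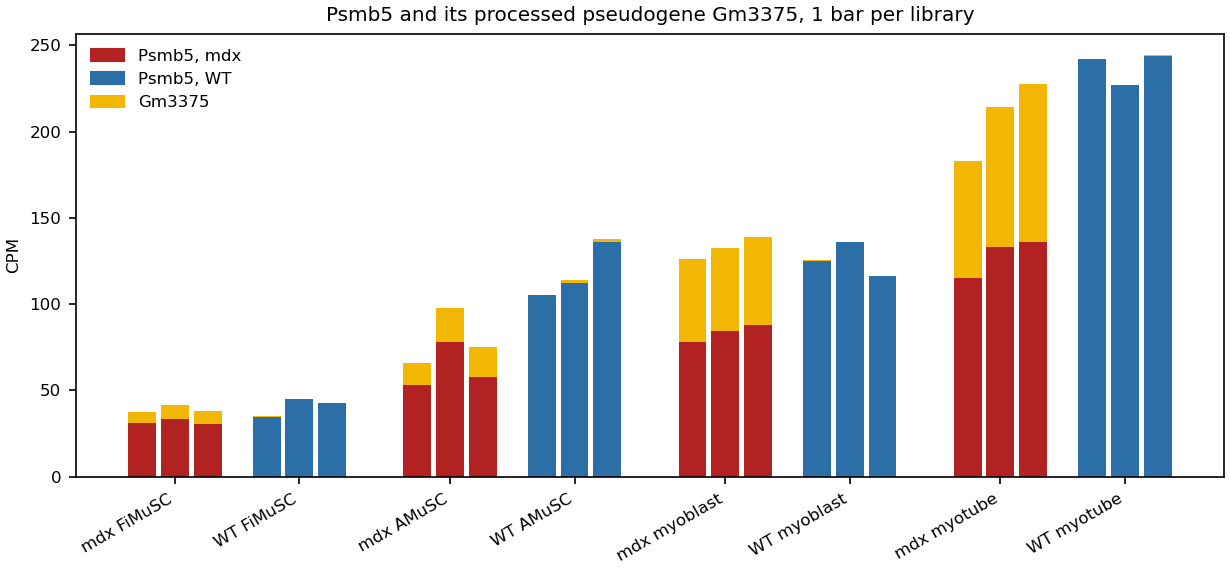
CPM of Psmb5 (red in mdx, blue in WT) with the CPM of its pseudogene Gm3375 stacked on top in yellow, 1 bar per library, mdx left of WT in each state. The yellow part is visible in the 12 mdx libraries and reaches 91.5 CPM in myotubes, and in the 12 WT libraries it is at most 2.11 CPM.

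Freshly isolated stem cells of uninjured muscle showed no called proteasome gene between the 2 genotypes. In mdx against WT FiMuSCs, 0 of 47 genes were called higher and 0 lower (edgeR), where 5.20% of all genes were higher and 3.14% lower. At an unadjusted p under 0.05 there were 5 genes, Psmb8, Psmb9 and Psmb10 with higher and Psmb5 and Psme2 with lower values in mdx, and DESeq2 called 1, Psmb8, higher. The median log2 fold change was 0.00, beside 0.01 for all genes. Psmb8 had a fitted value of 0.69 (SE 0.19, adjusted p = 0.0707) and Psmb9 of 0.65 (SE 0.25, adjusted p = 0.168), with no overlap between the libraries of Psmb8 and an overlap for Psmb9. In the same cells 9 of the 15 interferon and MHC class I genes and 6 of the 12 leukocyte genes were higher in mdx, beside the 5.20% of all genes, and their part in the values of Psmb8 and Psmb9 was not tested.

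In the tests of counts, differentiation of myoblasts into myotubes raised about as many proteasome genes in mdx as in WT, by smaller amounts than injury. In TPM the summed level did not rise, with means of 3711 in myoblasts and 3672 in myotubes of mdx, and 3759 and 3651 in WT. The alpha subunits were lower in myotubes in summed TPM (889 against 1111 in mdx, 831 against 1089 in WT). The constitutive beta subunits and the ATPases were higher in both genotypes. The direction thus depends on the measure for part of these genes. In mdx, 24 of 46 genes tested were higher in myotubes and 2 lower, where 24.7% of all genes were higher and 25.3% lower. In WT, 26 of 46 were higher and 7 lower, where 33.5% of all genes were higher and 33.2% lower. The median log2 fold change was 0.31 in mdx and 0.24 in WT, beside -0.07 and -0.02 over all genes. Of the higher genes 22 were shared, Psmd3 and Psmg3 were called in mdx alone, and Psma6, Psmb1, Psmb4 and Psmd9 in WT alone. Psma8 and Psmb9 were the genes not tested in these comparisons, since Psmb9 had at most 0.925 CPM in cultured cells.

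All 6 ATPases rose in both genotypes, while the rings of the core were split. Of the constitutive beta subunits, 4 rose in mdx (Psmb3, Psmb5, Psmb6 and Psmb7) and 6 in WT. Of the alpha subunits, Psma2 and Psma3 rose in both, Psma6 rose in WT, and Psma4 and Psma7 fell in WT. The mean TPM of Psma2, Psma3 and Psma6 was instead lower in myotubes in both genotypes, as for Psma2 in WT (68.9 against 80.6). The mean TPM of Psmb1 in WT and of Psmd3 in mdx, both called higher there, was lower as well. With the reads of its near-identical copies added, chosen after seeing the data, Psma3 passed in neither genotype. Its log2 fold change was then 0.20 (edgeR adjusted p = 0.129) in mdx and 0.13 (edgeR adjusted p = 0.0687) in WT. Of the non-ATPase subunits 7 rose in mdx, and 6 rose and 1 (Psmd14) fell in WT. Among the chaperones, Psmd10 and Psmg2 rose in both genotypes, Psmg3 rose in mdx and Psmd9 in WT, and Psmd5 fell in both.

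**Figure D5:**
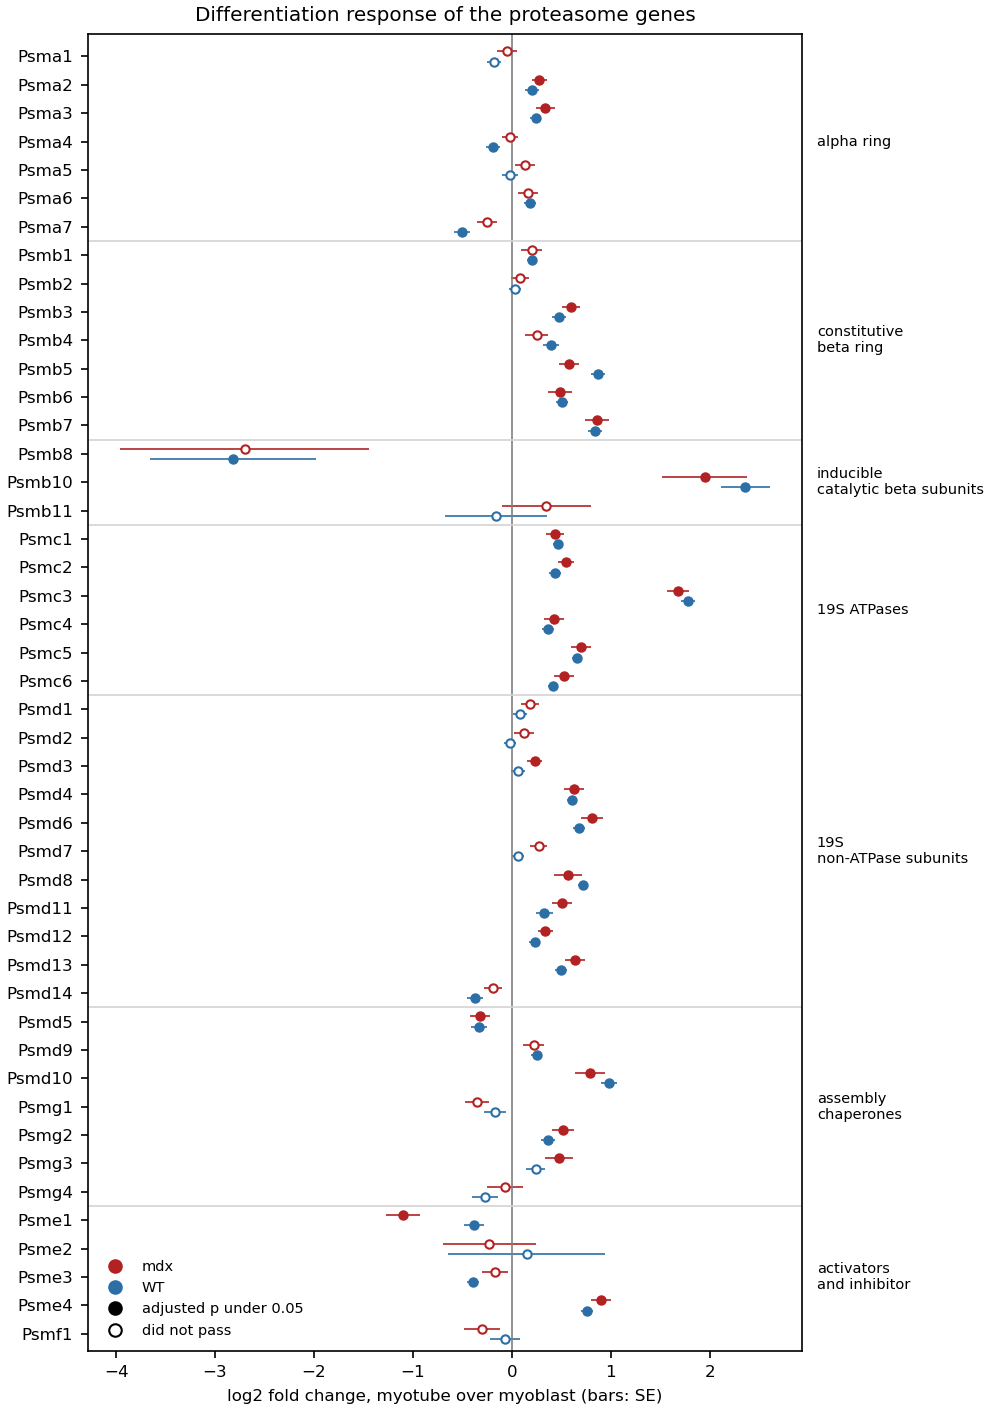
Log2 fold change of myotube over myoblast for each proteasome gene, mdx in red above WT in blue, bars giving the SE of the fit (6 libraries a genotype), filled points past the adjusted p of 0.05. Psmb10 and Psmc3 lie furthest right in both genotypes (1.95 and 1.68 in mdx, 2.36 and 1.78 in WT), and Psme1 lies left of 0 in both (-1.10 in mdx, -0.38 in WT).

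Psmc3, an ATPase subunit (chr2:91054009-91066369, plus strand), had 496, 541 and 625 CPM in mdx myotubes, against 160, 165 and 179 CPM in mdx myoblasts. In WT it had 612, 612 and 635 CPM in myotubes, against 174, 185 and 164 CPM in myoblasts. No groups overlapped, and the log2 fold change was 1.68 (SE 0.11, adjusted p = 0.000118) in mdx and 1.78 (SE 0.07, adjusted p = 1.04e-06) in WT, where the other ATPases had 0.37 to 0.70. Its exons overlap Slc39a13 on the other strand. Psmb10 had 9.95, 13.9 and 21.2 CPM in mdx myotubes against 2.36, 5.93 and 3.06 CPM in mdx myoblasts, and 14.2, 10.5 and 10.7 CPM in WT myotubes against 2.42, 2.62 and 1.60 CPM in WT myoblasts. It rose by 1.95 (SE 0.43) in mdx and 2.36 (SE 0.25) in WT on coding transcripts, and by 1.25 (SE 0.18) in mdx and 1.52 (SE 0.12) in WT with all transcripts.

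Psme4 had 477, 536 and 542 CPM in mdx myotubes against 268, 256 and 291 CPM in mdx myoblasts (log2 fold change 0.90, SE 0.10), and 558, 538 and 577 CPM in WT myotubes against 305, 317 and 335 CPM in WT myoblasts (0.76, SE 0.06). Psmd10 had 54.8, 69.7 and 62.8 CPM in mdx myotubes against 30.4, 34.7 and 40.5 CPM in mdx myoblasts (0.79, SE 0.15), and 54.7, 59.2 and 54.7 CPM in WT myotubes against 26.8, 29.0 and 27.1 CPM in WT myoblasts (0.98, SE 0.08). Neither gene's groups overlapped in either genotype. Of the active sites, Psmb7 had 324, 404 and 430 CPM in mdx myotubes against 195, 210 and 218 CPM in mdx myoblasts (0.86, SE 0.12), and 395, 392 and 415 CPM in WT myotubes against 223, 226 and 199 CPM in WT myoblasts (0.84, SE 0.07). Psmb6 had 182, 224 and 235 CPM in mdx myotubes against 136, 155 and 155 CPM in mdx myoblasts (0.49, SE 0.12), and 224, 225 and 231 CPM in WT myotubes against 157, 162 and 143 CPM in WT myoblasts (0.51, SE 0.06). The Psmb5 values listed above gave 0.58 (SE 0.10) in mdx and 0.87 (SE 0.07) in WT.

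Psme1 was the proteasome gene that fell most among those called lower in both genotypes. It had 10.4, 15.2 and 13.2 CPM in mdx myotubes against 24.8, 27.9 and 28.8 CPM in mdx myoblasts (log2 fold change -1.10, SE 0.17, adjusted p = 0.0024). In WT it had 15.7, 15.7 and 16.9 CPM in myotubes against 21.8, 18.6 and 20.4 CPM in myoblasts (-0.38, SE 0.10, adjusted p = 0.0128). The mdx myoblasts were above WT myoblasts in every library while the mdx myotubes were below WT myotubes, and the difference of responses was -0.70 (SE 0.19, edgeR adjusted p = 0.286). Psmd5, a chaperone of the ATPase ring, had 59.0, 62.7 and 60.6 CPM in mdx myotubes against 75.1, 70.0 and 78.0 CPM in mdx myoblasts (-0.32, SE 0.10), and 65.3, 61.0 and 56.6 CPM in WT myotubes against 80.3, 72.8 and 69.2 CPM in WT myoblasts (-0.33, SE 0.08).

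Other genes were called lower in WT alone. Psma7 had 122, 115 and 123 CPM in WT myotubes against 178, 168 and 147 CPM in WT myoblasts (log2 fold change -0.50, SE 0.08), and 118, 131 and 146 CPM in mdx myotubes against 140, 165 and 155 CPM in mdx myoblasts (-0.25, SE 0.10, adjusted p = 0.0846). Psme3 had 130, 129 and 131 CPM in WT myotubes against 172, 170 and 154 CPM in WT myoblasts (-0.39, SE 0.06), and 131, 132 and 124 CPM in mdx myotubes against 166, 135 and 125 CPM in mdx myoblasts (-0.17, SE 0.13, adjusted p = 0.306). In both genes the WT groups were apart, and the mdx groups overlapped. Psmb8 had 0.163, 0.114 and 0 CPM in WT myotubes against 0.391, 0.695 and 0.874 CPM in WT myoblasts (-2.82, SE 0.84, adjusted p = 0.0197), and 0, 0.121 and 0.839 CPM in mdx myotubes against 0.962, 2.57 and 2.65 CPM in mdx myoblasts (-2.70, SE 1.26, adjusted p = 0.123), all near the limit of detection. Psmf1 had 13.2 to 17.2 CPM in myotubes and 13.7 to 21.4 CPM in myoblasts over both genotypes and passed no test. Psme2 had 1.74, 1.88 and 2.45 CPM in mdx myotubes, 2.22, 1.02 and 1.70 CPM in WT myotubes, and 0.492 to 3.28 CPM in myoblasts on coding transcripts.

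Few of these genes were called between the 2 genotypes in cultured cells, where edgeR also called few of all genes. In mdx against WT myoblasts 0 of 47 were called in either direction by edgeR, where 0.213% of all genes were higher and 0.0709% lower, and the median log2 fold change was -0.05. At an unadjusted p under 0.05 there were 8 (4 in each direction), and DESeq2 called Psme1 higher and Psmb5 lower, beside 447 higher and 370 lower over all genes. In mdx against WT myotubes 0 of 45 were called higher and 1 lower, Psmb5, where 0.285% of all genes were higher and 0.165% lower, and the median was -0.02. The unadjusted p was under 0.05 for 1 gene in each direction, and DESeq2 called Psmg4 higher, beside 350 higher and 289 lower over all genes. Psmg4 had 19.4, 17.8 and 23.2 TPM in mdx myotubes against 11.5, 12.4 and 12.2 TPM in WT myotubes. In myoblasts it had 25.8, 29.4 and 28.3 TPM in mdx against 19.5, 19.7 and 17.8 TPM in WT. Its groups overlapped in neither state. In the difference of differentiation responses edgeR called 0 of 47 genes in either direction, where 0.00546% of all genes were higher and 0.0273% lower. The unadjusted p was under 0.05 for 1 gene in each direction, and DESeq2 called Psme1 lower. Leukocyte genes summed to 9.77, 238 and 12.1 CPM in mdx myoblasts against 20.9, 17.2 and 33.9 CPM in WT myoblasts, so that mdx myoblast replicate 2 stood apart.

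Proteasome genes that the symbol rule leaves out moved with the subunits after injury. Of 13 listed, 10 were tested, and 6 were higher in mdx AMuSCs and 9 in WT AMuSCs than in the FiMuSCs of the same genotype, where 17.8% of all genes were higher in mdx and 31.1% in WT. Usp14 and Uchl5, deubiquitinases of the cap, rose by 1.19 (SE 0.18) and 1.72 (SE 0.23) in mdx and by 2.07 (SE 0.09) and 2.40 (SE 0.11) in WT. Between mdx and WT AMuSCs, 3 of 9 tested were lower, Usp14 (-0.70, SE 0.14), Uchl5 (-0.81, SE 0.20) and Txnl1 (-0.55, SE 0.14), and 0 higher, where 8.36% of all genes were lower. The values without mdx AMuSC replicate 1 were -0.61 (adjusted p = 0.0209) for Usp14, -0.65 (adjusted p = 0.0261) for Uchl5 and -0.49 (adjusted p = 0.0621) for Txnl1. Usp14 had 84.4, 125 and 106 CPM in mdx AMuSCs against 177, 181 and 184 CPM in WT AMuSCs, and the groups did not overlap. In myotubes Pomp, the core assembly factor, rose by 0.74 (SE 0.10) in mdx and 0.91 (SE 0.06) in WT.

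Of the 10 genes of transcription and processing of proteasome genes, Nfe2l1, whose product drives proteasome genes when proteasome activity falls, rose with differentiation. It had 694, 957 and 809 CPM in mdx myotubes against 267, 274 and 307 CPM in mdx myoblasts, and 890, 854 and 885 CPM in WT myotubes against 284, 294 and 290 CPM in WT myoblasts. It rose by 1.5 (SE 0.15) in mdx and 1.55 (SE 0.05) in WT, and the list had 3 genes that rose and 3 that fell in mdx, and 4 that rose and 5 that fell in WT, where 24.7% of all genes rose and 25.3% fell in mdx, and 33.5% rose and 33.2% fell in WT. Nfya, a subunit of the NF-Y complex, fell by 1.51 (SE 0.12) in mdx and 1.80 (SE 0.07) in WT. After injury 1 gene of this list rose and 2 fell in mdx, and 3 rose and 3 fell in WT, beside 17.8% and 9.90% of all genes in mdx and 31.1% and 30.7% in WT. Nfe2l1 had 154 to 202 CPM in mdx AMuSCs against 174 to 182 CPM in mdx FiMuSCs. Between mdx and WT AMuSCs, Nfyb (-0.67, SE 0.13) was lower and Ngly1, which deglycosylates the Nfe2l1 protein, was higher (0.80, SE 0.16), and without mdx AMuSC replicate 1 they were at -0.61 (adjusted p = 0.0179) and 0.70 (adjusted p = 0.0416).

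Of 14 ubiquitin and shuttle factor genes, 5 rose and 1 fell in mdx AMuSCs and 9 rose and 1 fell in WT AMuSCs, where 17.8% of all genes rose and 9.90% fell in mdx, and 31.1% rose and 30.7% fell in WT. Vcp, the segregase that extracts ubiquitinated proteins, rose by 1.01 (SE 0.18) in mdx and 1.13 (SE 0.12) in WT. In myotubes the shuttle factor gene Ubqln2 fell by 1.5 (SE 0.09) in mdx and 1.95 (SE 0.08) in WT. Of 8 muscle ubiquitin ligase and atrophy genes, 4 rose and 2 fell in mdx myotubes, and 4 rose and 3 fell in WT myotubes, where 24.7% of all genes rose and 25.3% fell in mdx, and 33.5% rose and 33.2% fell in WT. Trim63, the ligase MuRF1 of muscle atrophy, had 147, 96.4 and 110 CPM in mdx myotubes against 0.735, 2.49 and 1.03 CPM in mdx myoblasts, and 94.4, 91.3 and 93.6 CPM in WT myotubes against 0.939, 7.04 and 0.819 CPM in WT myoblasts, while Fbxo32, the ligase atrogin-1, fell by 1.05 (SE 0.19) in mdx and 1.02 (SE 0.14) in WT.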

How the data were processed

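RNA was sequenced from 24 libraries in 8 groups of 3. Per the labels, libraries were made from polyadenylated RNA with a directional kit. Salmon 0.13.1, DESeq2 and GRCm38 are listed in the processing notes of the submitters. The authors deposited expected counts per transcript as Salmon estimated them, with reads shared among similar transcripts, and the effective length of each transcript. The deposited TPM values were made by the authors from those counts by dividing by effective length and scaling to a fixed total per library. Whether counting used strand is not given in the sources used here.

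Expected counts were summed per gene over protein-coding transcripts and rounded, which left out 9.76 to 14.8% of reads per library and 11.1 to 18.2% of those on the proteasome genes. Transcript and gene models were GENCODE M21 on GRCm38, and 53355 of 53392 gene identifiers matched. Genes passing filterByExpr were tested with edgeR 4.0.16 (R 4.3.3, TMM factors, robust quasi-likelihood test) in the groups compared, and in 12 libraries for each difference of responses, with Benjamini-Hochberg adjustment over all genes and a threshold of 0.05. The 8 pairwise comparisons and 2 differences made 10 tests per gene. Counts at an unadjusted p are given without the share of all genes at that threshold. The CPM values use TMM factors over all 24 libraries. The fits, except that of the difference of differentiation responses, were also run on simulated data. The simulated spread was below that estimated between mdx and WT AMuSCs, so that run does not show how the test performs there. DESeq2 1.42.0, other size factors, no filter, all transcripts, a length offset, 1 fit of all libraries, a replicate block, leaving out each library and, chosen after seeing the data, adding the reads of near-identical copies were the alternatives.

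The members and lists were chosen with earlier results of these data known. Values of every library are given for up to 4 genes a direction with the largest log2 fold change among those called in a comparison, and always for the active-site, activator and inhibitor genes, and of other lists up to 4 genes with the smallest p. Other genes named with values, such as Psmd14 in the difference of responses, were chosen after their values were seen. Promoter windows are from RefSeq (GRCm38.p6), where 40 of 48 genes matched. Some genes of the other lists are not reported here by name.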

Additional observations from a re-analysis of the deposited data

Results flagged for a closer look

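The injury response differed between the genotypes in a test of the difference itself for 5 proteasome genes (mdx minus WT, log2 scale, edgeR), 2 of 47 higher and 3 of 47 lower, where 7.19% of all genes were higher and 6.14% lower. These counts lie near the shares of all genes, so the proteasome genes did not stand out by them. Leaving out 1 library gave 0 to 3 higher and 0 to 32 lower genes, counts given without a share over all genes. Psmb8 was at 2.15 (SE 0.52, adjusted p = 0.0221) and Psmb9 at 1.95 (SE 0.56, adjusted p = 0.0396). Psme3 was at -1.10 (SE 0.26, adjusted p = 0.019), Psmd12 at -0.84 (SE 0.22, adjusted p = 0.0287) and Psmd14 at -0.81 (SE 0.20, adjusted p = 0.0214). Without mdx AMuSC replicate 1, the library rich in leukocyte transcripts, the call of Psmb9 was lost (1.37, adjusted p = 0.0861) and those of Psmb8, Psme3, Psmd12 and Psmd14 were kept.

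Signal also appeared outside the counted transcripts. Psme2 was 1 of 10 genes with over 50% of their TPM on transcripts not classed as protein coding, which averaged 274 TPM for Psme2 over the 24 libraries. The Psmb5 pseudogene Gm3375 averaged 38.1 CPM over the 12 mdx libraries, where the 12 WT libraries had at most 2.11 CPM.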

How the results depend on the processing

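Counts of called proteasome genes moved with the test more than with the size factors, and fold changes of the tested counts seldom turned. Levels in TPM were not tested and could differ in direction, as for the alpha subunits in myotubes. Of 3278 alternative values of single genes, 3009 kept direction and side of the threshold, 235 lost and 33 gained a call, and 1 reversed, Psme2 after injury in WT (0.22 with all transcripts). In mdx against WT AMuSCs the 9 lower genes became 25 with DESeq2, 33 with all libraries in 1 fit, 5 with the length offset and 4 with the replicate block. Lower calls over all genes moved as well, from 1585 to 2640 with DESeq2, 2678 with all libraries in 1 fit and 1242 with the length offset. In the difference of injury responses the 3 lower genes became 6 with RLE size factors, 12 with DESeq2, 16 with all libraries in 1 fit and 8 with the replicate block. The 1277 lower calls over all genes became 1333 with RLE size factors, 2049 with DESeq2 and 1788 with all libraries in 1 fit. The 2 higher genes became 1 with the length offset and 0 with all libraries in 1 fit. The 1495 higher calls over all genes became 1143 with the length offset and 1502 with all libraries in 1 fit. With DESeq2, 1 gene was higher in mdx in each of FiMuSCs, myoblasts and myotubes, and 1 was lower in myoblasts and 1 in the difference of differentiation responses. Over all genes DESeq2 called 1818 higher in FiMuSCs, 447 in myoblasts and 350 in myotubes. It called 370 lower in myoblasts and 106 lower in the difference of differentiation responses. Psmb5 was the 1 gene lower in mdx myoblasts without the filter and with all libraries in 1 fit, and the myotube count became 0 with the replicate block and 0 with the copies added. The genes lower after injury in WT became 1, and those lower in WT myotubes 3, with all libraries in 1 fit, and those lower in mdx myotubes 1 without the filter and 1 with the replicate block. The causes of these shifts were not tested.

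Leaving out 1 library gave 0 to 1 lower genes in FiMuSCs, 0 to 3 higher and 0 to 33 lower in AMuSCs, 0 to 1 lower in myotubes, 21 to 38 higher after injury in mdx, 1 to 2 lower in differentiation in mdx, and 0 to 3 higher and 0 to 32 lower in the difference of injury responses. These ranges are given without shares over all genes. Same-numbered deviations correlated at -0.104 to 0.268, which does not settle whether the numbers 1 to 3 pair the libraries, and the replicate block is given for completeness. In WT myotubes and myoblasts each library correlated best with its own number (0.0326 to 0.0642), a hint from the data only. In mdx myotubes and myoblasts replicate 1 did so (0.268), while replicates 2 and 3 did not.

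With all transcripts, the summed TPM was 3717 in mdx and 3674 in WT FiMuSCs, 5477 and 5971 in mdx and WT AMuSCs, 6155 and 6142 in mdx and WT myoblasts, and 6036 and 6071 in mdx and WT myotubes. The Psmb10 share was then 35.5% and 28.2% in mdx and WT FiMuSCs, 33.4% and 23.4% in AMuSCs, 12.5% and 9.76% in myoblasts, and 12.6% and 11.9% in myotubes. From counts in place of TPM it was 6.45% in mdx and 3.30% in WT AMuSCs, 2.86% in WT myotubes and 1.01% in WT myoblasts, the Psmb8 share was 39.9% in mdx FiMuSCs and 3.00% in WT AMuSCs, and the Psmb9 share was 10.6% in mdx and 6.53% in WT FiMuSCs. With the copy Gm3375 added to Psmb5, chosen after seeing the data, the Psmb8 share was 28.3% in mdx FiMuSCs. The low levels of Psmb8 and Psmb9 in cultured cells limit their precision there.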
